A study of Homo sapiens with 12 samples.

Results

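The 8 genes described here encode subunits of the sodium pump and ion transporters of the epithelial cell membrane. They were chosen by gene name from the deposited count table, which lists 58735 genes, and each of the 8 names matched 1 gene. They are the pump subunits ATP1B1 and ATP1B3, the pump regulators FXYD2 and FXYD5, the sodium/proton exchanger SLC9A3, the sodium-potassium-chloride cotransporter SLC12A2, and the sodium bicarbonate cotransporters SLC4A4 and SLC4A7. All 8 passed the filter on low counts in every comparison.

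The RNA of HK-2 cells, an immortalized line of the human renal proximal tubule, was sequenced in 12 samples of 4 groups with 3 samples each. The cells of 3 groups received a drug for 48 h: iohexol, an iodinated contrast medium (75 mg I/mL), cisplatin, a platinum compound used against tumors (5 μM), or vancomycin, a glycopeptide antibiotic (4 mM). The control group received water. All 4 groups were grown in the same medium with serum, so that each group is a cell culture model on 1 cell line, and each drug was sequenced at 1 dose and 1 time.

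The sodium pump exchanges intracellular sodium for extracellular potassium and keeps the gradient that drives nearly all other transport in the proximal tubule. Its alpha subunit is the catalytic one, its beta subunit is needed to bring the pump to the membrane, and FXYD proteins adjust its affinity and transport rate. In the tubule, SLC9A3 takes up sodium from the lumen in exchange for protons and SLC4A4 carries the resulting bicarbonate out to the blood side, while SLC12A2 and SLC4A7 bring chloride or bicarbonate into cells together with sodium.

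The samples held between 14057282 and 18177109 counts. Levels are given as CPM, counts scaled by the depth of the sample and by its TMM factor (trimmed mean of M values), and the floor of 3 counts was at 0.177 to 0.218 CPM, which covers counting error only. These factors lay at 0.961 to 0.976 for control samples, at 1.02 to 1.04 for iohexol, at 1.12 to 1.13 for cisplatin and at 0.885 to 0.897 for vancomycin. The labelled cell type was only partly visible in its markers: of 17 proximal tubule markers, 7 had at least 3 counts in all 12 samples. LRP2, the endocytic receptor megalin, had 0 to 3 counts and the organic anion transporter SLC22A6 had 0. The summed level of the 17 markers was 1050 to 1140 CPM in control samples, against 858 to 1070 CPM after iohexol, 379 to 403 CPM after cisplatin and 1100 to 1220 CPM after vancomycin. Most of each sum came from CDH6, PAX8 and GGT1, which did not move together: after iohexol the mean of CDH6 was 170 CPM against 520 CPM in the control group, and that of PAX8 was 617 against 372 CPM. The labels do not say that replicates were separate cultures, so p-values measure only the spread between these samples, which may be technical.

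Among the 8 genes, transcripts of the beta subunits were most abundant per length and those of SLC9A3 and FXYD2 least. In the control group, the level per kilobase of gene length was 92.6 ± 2.76 CPM/kb for ATP1B3 (mean ± SD, n = 3 here and below), 51.2 ± 3.56 CPM/kb for ATP1B1 and 30.3 ± 1.13 CPM/kb for FXYD5. SLC4A4 followed with 15.9 ± 1.63 CPM/kb, SLC4A7 with 6.09 ± 0.454 CPM/kb and SLC12A2 with 1.72 ± 0.234 CPM/kb. FXYD2 at 0.499 ± 0.224 CPM/kb and SLC9A3 at 0.181 ± 0.0372 CPM/kb were lowest. They had 18 to 207 and 10 to 69 counts per sample over the 12 samples, and their folds had the widest errors. FXYD2 also varied between replicates, with an SD of 44.8% of the mean in the control group.

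**Figure D1:**
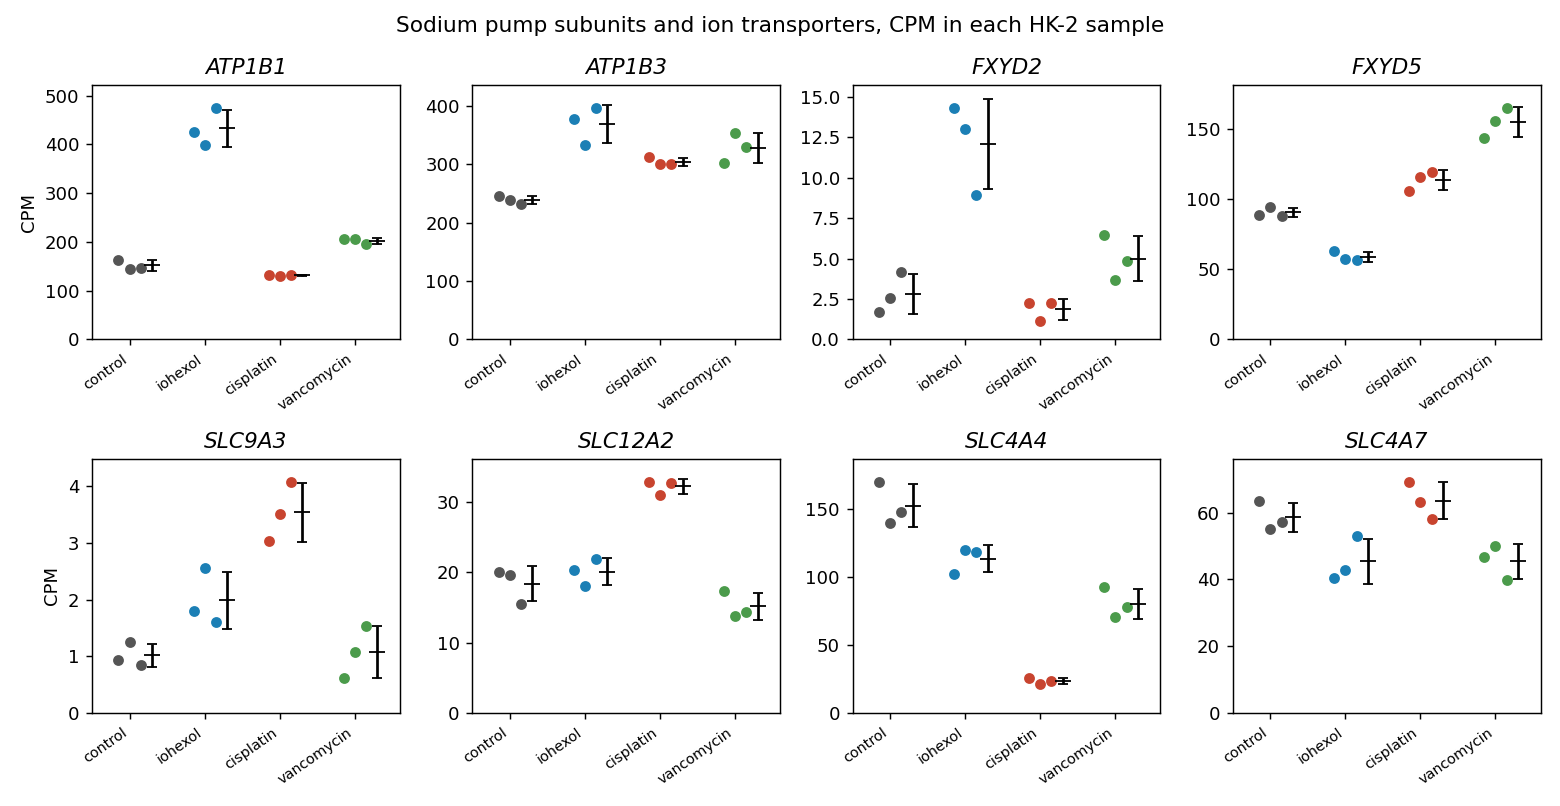
CPM (TMM-scaled, linear axis from 0) of each of the 8 genes in each of the 12 samples, with points for samples and bars for the mean ± SD of 3 samples in each group. ATP1B1 and FXYD2 were highest with iohexol, SLC9A3 and SLC12A2 with cisplatin and FXYD5 with vancomycin, while SLC4A4 was lowest with cisplatin, at 21.6 to 26.1 CPM.

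With iohexol, the largest folds were among the pump subunits. In the comparison of iohexol with the control group, ATP1B1, ATP1B3 and FXYD2 were up-regulated and FXYD5 and SLC4A4 were down-regulated. Thus 5 of the 8 genes passed an adjusted p of 0.05 in edgeR's quasi-likelihood test with Benjamini-Hochberg adjustment, where 21.0% of the 15657 genes tested did (11.2% higher and 9.77% lower). The DEGs, which also had a log2 fold change above 1 or below -1, were ATP1B1 and FXYD2, 2 of 8 genes against 5.28% of all genes tested. The iohexol samples did not overlap the control samples for 7 of the 8 genes, against 37.9% of all genes tested. The median log2 fold change of the 8 genes was 0.395, and that of all genes tested was 0.0122. The 8 genes were chosen with earlier results of these data known. Such shares and medians, here and for the other drugs, are therefore descriptions and do not test the set.

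ATP1B1 (ENSG00000143153), the beta subunit typical of the kidney, was at 164, 145 and 146 CPM in the control samples and at 425, 399 and 474 CPM in the iohexol samples. Every iohexol sample was above every control sample. The log2 fold change was 1.53 (SE 0.09, adjusted p = 6.81e-07), a level 2.89-fold higher, and its p ranked 38 among the genes tested. The gene lies at chr1:169105697-169132722 (GRCh38, plus strand) and shares 6.5% of its exon bases with NME7 on the opposite strand, which had a log2 fold change of -0.21 with iohexol (adjusted p = 0.345). ATP1B3 (ENSG00000069849), another beta subunit (chr3:141876124-141926514, plus strand), was at 246, 240 and 232 CPM in the control samples and at 377, 334 and 397 CPM in the iohexol samples, again without overlap. Its log2 fold change was 0.64 (SE 0.09, adjusted p = 0.000294).

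The beta subunits therefore moved by different amounts. Per length, the ratio of ATP1B1 to ATP1B3 was 0.530 to 0.581 in the control samples and 0.983 to 1.04 in the iohexol samples, as the plot of pump subunits per length shows. This ratio is a description without a test. In RNA of whole cultures, more cells that express a gene and more RNA per cell cannot be told apart.

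**Figure D2:**
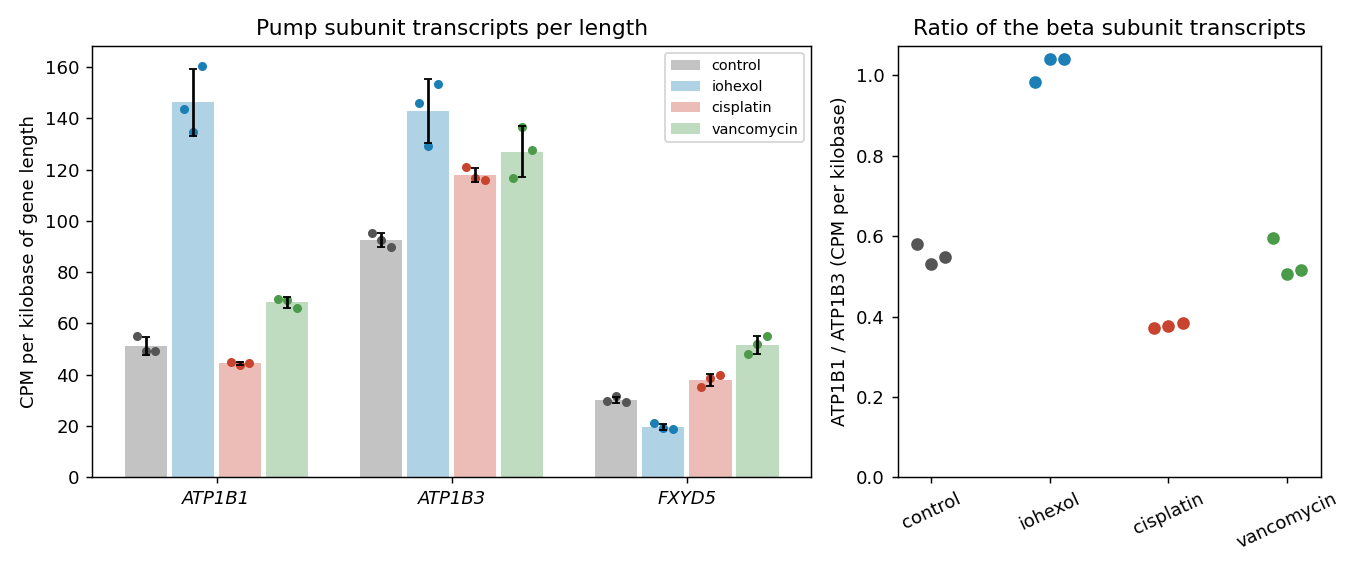
Left, CPM per kilobase of gene length of 3 pump subunits by group, with bars from 0 for means, error bars for SD (n = 3) and points for samples. Right, the ratio of ATP1B1 to ATP1B3 in each sample: the iohexol samples sit at 0.983 to 1.04 and the cisplatin samples at 0.371 to 0.383, on either side of the control samples at 0.530 to 0.581.

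FXYD2 (ENSG00000137731), the gamma subunit of the renal pump (chr11:117800844-117828698, minus strand), had 1.67, 2.57 and 4.14 CPM in the control samples and 14.3, 12.98 and 8.96 CPM with iohexol. The iohexol samples were all higher, although both groups varied widely, and the log2 fold change was 2.12 (SE 0.28, adjusted p = 0.000249). FXYD5 (ENSG00000089327), also called dysadherin (chr19:35154730-35169883, plus strand), went the other way, from 88.9, 94.5 and 88.3 CPM to 63.0, 57.6 and 56.4 CPM. All iohexol samples were below all control samples for this gene, with a log2 fold change of -0.60 (SE 0.09, adjusted p = 0.00068). Some reads of FXYD2 could belong to other genes: 14.2% of its exon bases were shared with annotated neighbors and 22.4% of its 31-base sequences occurred in another gene. Of these neighbors, FXYD6-FXYD2 had 0 counts in all 12 samples. It shares 392 exon bases with FXYD2 on the same strand, so this count does not show that it was not transcribed. The antisense gene AP000757.2 had 0 to 2 counts per control sample and 4 to 17 per iohexol sample, and thus was also higher with iohexol. Markers of the loop of Henle, distal tubule and collecting duct, where FXYD2 is also expressed, summed to 0.921 to 1.96 CPM in the control samples and 2.42 to 3.68 CPM with iohexol. Of these 9 markers, 5 reached 3 counts in no sample, and their part in the FXYD2 result was not tested.

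Among the transporters, SLC4A4 was the only one of 4 that passed the test with iohexol. SLC4A4 (ENSG00000080493), the electrogenic bicarbonate cotransporter NBCe1, fell from 170, 140 and 148 CPM to 103, 120 and 118 CPM, without overlap and with a log2 fold change of -0.41 (SE 0.10, adjusted p = 0.0167). Among the samples left out in turn, this call was lost without control replicate 1 (adjusted p = 0.0613) or without iohexol replicate 1 (0.0702), in a range of 0.000425 to 0.0702 over 14 alternatives. SLC9A3 had a log2 fold change of 0.98 (95% interval 0.26 to 1.695, adjusted p = 0.0547) and SLC4A7 one of -0.35 (-0.61 to -0.09, adjusted p = 0.0545). Both were just outside the threshold although their groups did not overlap, and their calls varied with the processing. SLC9A3 passed without iohexol replicate 3 (adjusted p = 0.0335), with library size alone (0.0416), with at least 10 counts in every sample (0.038) and in 1 fit of all 12 samples (0.0424), in a range of 0.0335 to 0.236. SLC4A7 passed without iohexol replicate 3 (0.00168), with DESeq2 (0.0367), with RLE factors (0.05 after rounding), without a filter (0.0139) and in 1 fit of all 12 samples (0.0208), in a range of 0.00168 to 0.185. SLC12A2 was at 20.0 ± 1.92 CPM with iohexol and 18.3 ± 2.49 CPM in the control group, a difference not detected here (95% interval -0.15 to 0.45, adjusted p = 0.497).

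**Figure D3:**
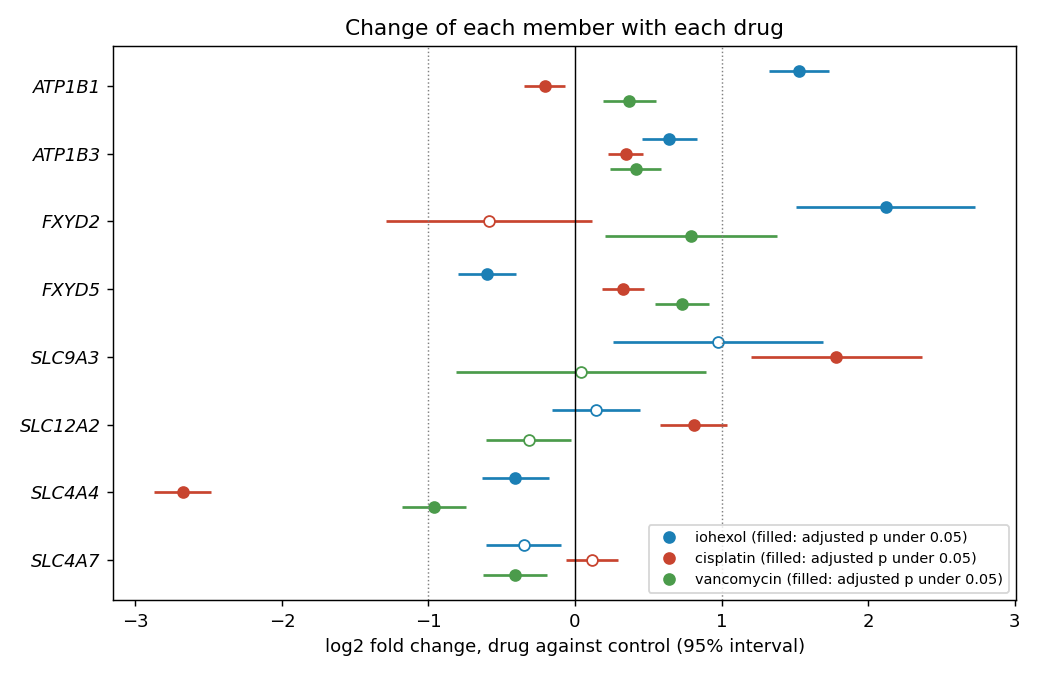
Log2 fold change of the 8 genes with each drug against the same 3 control samples, with 95% intervals from edgeR (filled points have an adjusted p under 0.05, dotted lines mark 1 and -1). The intervals of SLC4A4 with cisplatin and of ATP1B1 and FXYD2 with iohexol lie wholly beyond the dotted lines, as does that of SLC9A3 with cisplatin.

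With cisplatin, the largest changes were among the transporters instead. SLC4A4 was down-regulated 6.39-fold, SLC9A3 was up-regulated 3.44-fold and SLC12A2 1.75-fold, while the pump subunits moved by at most 1.27-fold among those that passed the test. In all, 6 of the 8 genes passed the adjusted p, 4 higher and 2 lower, where 59.8% of the 15876 genes tested did (29.2% higher and 30.6% lower). Such a share is not far from that of all genes, and the sizes say more than the count. The DEGs were SLC9A3 and SLC4A4, 2 of 8 genes against 16.3% of all genes. The cisplatin samples did not overlap the control samples for 6 genes, against 65.1% of all genes tested. The median log2 fold change was 0.221 over the 8 genes and 0.00733 over all genes tested.

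SLC4A4 fell from 170, 140 and 148 CPM in the control samples to 26.1, 21.6 and 24.0 CPM in the cisplatin samples. The highest cisplatin sample was far below the lowest control sample, and the log2 fold change was -2.68 (SE 0.09, adjusted p = 1.82e-13). SLC4A7 (ENSG00000033867), the electroneutral cotransporter NBCn1 of the same family (chr3:27372721-27484420, minus strand), was at 63.5, 55.1 and 57.2 CPM in the control samples and at 69.2, 63.3 and 58.1 CPM with cisplatin. These groups overlapped, and the log2 fold change of 0.12 (95% interval -0.06 to 0.29) did not pass the test (adjusted p = 0.24). The call appeared without control replicate 1 (adjusted p = 0.0295) and with library size alone (0.00196), in a range of 0.00196 to 0.687 over 14 alternatives. Per length, SLC4A7 had 0.374 to 0.395 of the SLC4A4 level in the control samples and 2.43 to 2.94 times that level in the cisplatin samples.

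SLC4A4 is by far the longest of the 8 genes, with 509421 bases on chromosome 4 (GRCh38, chr4:71062667-71572087, plus strand). The other 7 genes span 15154 to 111700 bases. Of the 172 tested genes that span at least as much as SLC4A4, 139 were lower with cisplatin, 120 of them as DEGs, and 11 were higher, with a median log2 fold change of -1.86. In 42 of them the log2 fold change was below that of SLC4A4. The medians of all tested genes fell from 0.295 for spans up to 10 kb to -0.469 for 100 to 300 kb and to -1.39 for 300 to 1000 kb, with -1.14 for the 26 genes above 1000 kb. With iohexol, 39 of 184 such long genes were lower and 33 higher (median 0.0325), and with vancomycin 83 of 188 were lower and 34 higher (median -0.234). The comparison by span was chosen after the values were seen, and the part of span in the SLC4A4 result was not tested. The summed proximal tubule markers were also lower with cisplatin, mainly through CDH6 (520 CPM in the control group and 64.1 CPM with cisplatin) and PAX8 (372 and 131 CPM), while GGT1 (189 and 169 CPM) and MIOX (19.4 and 20.0 CPM) differed less. The sum of 5 general epithelial markers was higher, at 1230 to 1280 CPM against 762 to 852 CPM in the control samples. Most of this sum came from KRT8 and KRT18 (log2 fold changes 0.77 and 0.90 with cisplatin), while CDH1 had 0 to 8 counts per sample. The sum therefore does not show that all 5 rose. The part of these markers in the SLC4A4 result was not tested either.

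**Figure D4:**
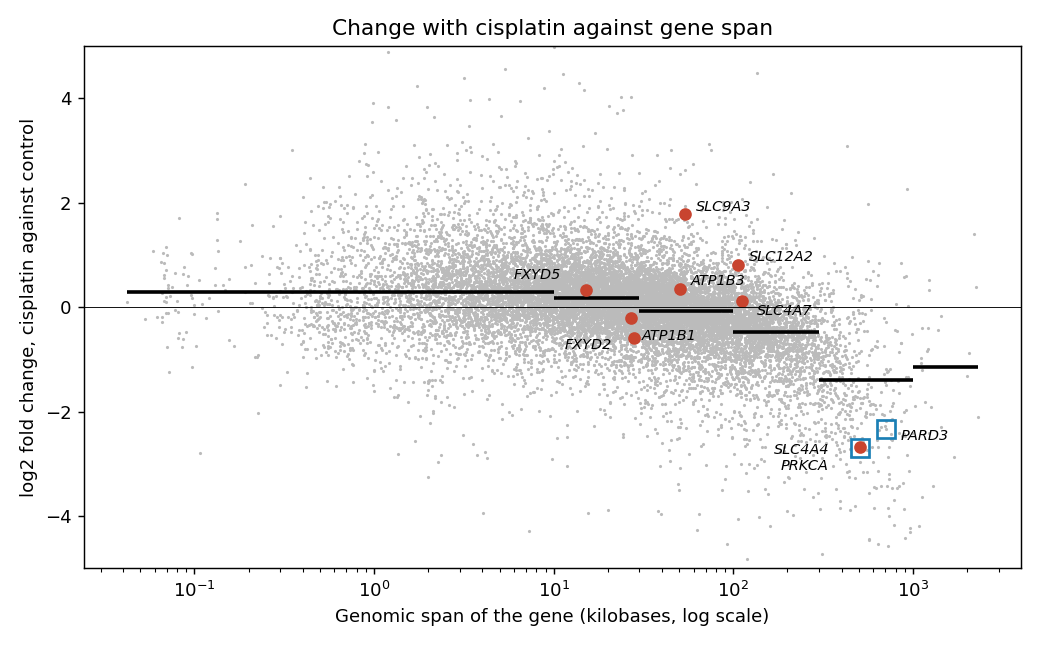
Log2 fold change with cisplatin against the genomic span of each tested gene (log axis, kilobases; 8 of 15876 genes lie outside the vertical axis), with black lines at the medians of 6 span classes, red points for the 8 genes and blue squares for PRKCA and PARD3. SLC4A4 at 509 kb lies at -2.68, inside the square of PRKCA, where the class median is -1.39. SLC9A3, SLC12A2, SLC4A7, ATP1B3 and FXYD5 lie above the medians of their classes, and ATP1B1 and FXYD2 below.

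SLC9A3 (ENSG00000066230), the apical exchanger NHE3 (chr5:470458-524332, minus strand), rose from 0.943, 1.25 and 0.855 CPM in the control samples to 3.03, 3.51 and 4.08 CPM with cisplatin. The counts behind these levels were 13 to 20 and 50 to 69 per sample, and the groups did not overlap. The log2 fold change was 1.78 (SE 0.28, adjusted p = 2.73e-05). This value is uncertain in its source, since 56.7% of the exon bases of SLC9A3 were shared with other annotated genes and 40.2% of its 31-base sequences occurred in another gene. One neighbor on the opposite strand, SLC9A3-AS1, also rose with cisplatin, from 5.42 ± 2.67 to 13.3 ± 0.425 CPM (log2 fold change 1.28, SE 0.22, adjusted p = 8.14e-05, edgeR). The strand setting of the counting was not given in the sources used here, so reads of SLC9A3 and of SLC9A3-AS1 cannot be told apart where they overlap. EXOC3, also on the opposite strand, had a log2 fold change of -0.12 (adjusted p = 0.198), and PP7080, which shares the strand, had at most 4 counts in any sample. PP7080 shares 2363 exon bases with SLC9A3, so this low count does not show that it was not transcribed.

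SLC12A2 (ENSG00000064651), the cotransporter NKCC1 (chr5:128083766-128189688, plus strand), was at 20.0, 19.6 and 15.5 CPM in the control samples and at 32.8, 30.97 and 32.7 CPM with cisplatin. The cisplatin samples were close to each other and all higher, with a log2 fold change of 0.81 (SE 0.11, adjusted p = 4.73e-06). It shared no exon base with another annotated gene.

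The stretches before the annotated starts of the transporters that moved most with cisplatin are shown to compare those of the genes that rose with those of the gene that fell. They hold the 250 bases before a RefSeq start (GRCh38.p14), 5′ to 3′ on the strand of the gene, with matches in capitals to 5 motifs searched on both strands: GGGCGG (SP1 box), TGANTCA (AP-1 site), TGACGT (core of the cyclic AMP response element), TGGAAA (core of the tonicity enhancer) and CACGTG (E-box). The first is SLC9A3 at chr5:524450-524699 on the minus strand, the second SLC12A2 at chr5:128083516-128083765 on the plus strand, and the last ones 2 of 5 SLC4A4 starts, at chr4:71062410-71062659 and chr4:71338770-71339019 on the plus strand.

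SLC9A3: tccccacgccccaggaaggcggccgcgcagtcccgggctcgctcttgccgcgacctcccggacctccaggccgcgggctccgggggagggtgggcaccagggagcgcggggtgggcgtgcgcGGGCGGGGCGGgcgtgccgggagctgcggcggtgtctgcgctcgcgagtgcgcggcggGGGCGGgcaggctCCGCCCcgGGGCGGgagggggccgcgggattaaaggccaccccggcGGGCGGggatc

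SLC12A2: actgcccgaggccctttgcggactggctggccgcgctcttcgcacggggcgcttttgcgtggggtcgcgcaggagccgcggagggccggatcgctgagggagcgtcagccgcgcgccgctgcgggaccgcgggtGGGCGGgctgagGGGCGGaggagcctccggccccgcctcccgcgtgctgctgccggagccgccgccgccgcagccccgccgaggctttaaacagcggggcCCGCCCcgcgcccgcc

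SLC4A4, first start: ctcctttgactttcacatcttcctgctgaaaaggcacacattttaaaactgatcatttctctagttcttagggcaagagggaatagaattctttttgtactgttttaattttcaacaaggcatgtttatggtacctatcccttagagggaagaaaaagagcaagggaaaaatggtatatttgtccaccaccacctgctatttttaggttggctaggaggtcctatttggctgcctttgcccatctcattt

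SLC4A4, last start: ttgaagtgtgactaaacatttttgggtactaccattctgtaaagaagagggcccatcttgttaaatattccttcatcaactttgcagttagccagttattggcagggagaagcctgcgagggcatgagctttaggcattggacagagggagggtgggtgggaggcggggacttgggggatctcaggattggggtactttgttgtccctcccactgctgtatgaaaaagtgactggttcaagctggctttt

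The SLC9A3 stretch was 82.0% G or C with 6 SP1 boxes and the SLC12A2 stretch 79.6% with 3, while the SLC4A4 stretches shown were 39.2% and 48.4% with 0 matches to any of the 5 motifs. These stretches were chosen for holding no annotated exon base. SLC4A4 also has starts with 78.8% and 75.2% G or C and 2 and 1 SP1 boxes. Its remaining start (chr4:71235810-71236059) has 45.2% G or C, 0 SP1 boxes, 1 AP-1 site and 1 tonicity core. The start used in HK-2 cells cannot be read from counts per gene. RefSeq windows were found for 7 of the 8 genes, and SP1 boxes were in 8 of their 12 windows of 300 bases, against 45.0% of all 35116 windows. An AP-1 site was in 2 of the 12 (7.7% of all), the cyclic AMP core in 1 (8.0%), the tonicity core in 2 (20.7%) and the E-box in 0 (7.3%). A match is a description of the letters, not a site of binding.

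The pump subunits changed less with cisplatin. ATP1B3 rose from 239 ± 7.14 to 305 ± 6.88 CPM (log2 fold change 0.35, SE 0.06, adjusted p = 4.66e-05), and FXYD5 from 90.6 ± 3.38 to 114 ± 7.18 CPM (0.33, SE 0.07, adjusted p = 0.000491). ATP1B1 was at 133, 130 and 132 CPM, below the control samples, with a log2 fold change of -0.21 (SE 0.07, adjusted p = 0.0118). NME7, which shares exon bases with ATP1B1, was also lower with cisplatin (log2 fold change -0.72, adjusted p = 8.46e-05, edgeR). The part of NME7 in the ATP1B1 result was not tested. The direction of ATP1B1 was not stable to scaling. When only library size was used, its log2 fold change was 0.01 (adjusted p = 0.892), and without cisplatin replicate 2 the adjusted p was 0.0552, in a range of 0.00427 to 0.892 over 14 alternatives. That scaling moved the median change over all genes tested with cisplatin from 0.00733 to 0.224 and the share of higher genes among all calls from 48.9% to 68.0%, with 5 of the 8 genes then called higher and 1 lower in place of 4 and 2. FXYD2 had 2.24, 1.11 and 2.25 CPM with cisplatin, overlapping the control samples, and its log2 fold change of -0.59 (95% interval -1.29 to 0.12) did not pass the test (adjusted p = 0.14). It passed without control replicate 1 (adjusted p = 0.0215, range 0.0215 to 0.631).

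With vancomycin, 6 of the 8 genes changed, each by at most 1.95-fold. Both beta subunits, FXYD2 and FXYD5 were up-regulated and both bicarbonate cotransporters were down-regulated. These 6 of 8 calls compare with 57.9% of the 15819 genes tested (29.1% higher and 28.8% lower), and 0 of 8 were DEGs, against 18.5% of all genes. The vancomycin samples did not overlap the control samples for 5 of the 8 genes, against 63.2% of all genes tested. The medians were 0.207 for the 8 genes and -0.00842 for all genes tested.

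FXYD5 was at 144, 156 and 165 CPM with vancomycin, above all 9 other samples, with a log2 fold change of 0.73 against the control group (SE 0.09, adjusted p = 1.85e-07). ATP1B1 was at 206, 205 and 195 CPM (log2 fold change 0.37, SE 0.09, adjusted p = 0.000808) and ATP1B3 at 302, 353 and 330 CPM (0.41, SE 0.09, adjusted p = 0.000228). The ratio of ATP1B1 to ATP1B3 per length, 0.507 to 0.595, overlapped that of the control samples. FXYD2 was at 6.44, 3.65 and 4.87 CPM, with its lowest sample below the highest control sample, and a log2 fold change of 0.79 (SE 0.28, adjusted p = 0.0205). The FXYD2 call was lost without control replicate 1 (adjusted p = 0.118) or vancomycin replicate 1 (0.139), in a range of 0.00158 to 0.139. Without control replicate 3 the log2 fold change of FXYD2 was 1.17 (adjusted p = 0.00158), which made it a DEG.

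SLC4A4 was at 92.4, 70.8 and 78.1 CPM with vancomycin, below every control and iohexol sample and above every cisplatin sample. Its log2 fold change was -0.96 (SE 0.11, adjusted p = 3.63e-08), just short of the limit for a DEG, and over 14 alternatives it lay between -1.07 and -0.87. It was below -1, and SLC4A4 a DEG, without control replicate 2 (-1.03) or vancomycin replicate 1 (-1.07), and with library size alone. SLC4A7 was at 46.6, 49.9 and 39.8 CPM, also below the control samples (log2 fold change -0.41, SE 0.11, adjusted p = 0.0021). SLC12A2 was at 15.1 ± 1.92 CPM, with overlap and a log2 fold change of -0.32 (95% interval -0.61 to -0.03) that did not pass the test (adjusted p = 0.056, edgeR). It passed without control replicate 3 (adjusted p = 0.0159) or vancomycin replicate 1 (0.0223) and with library size alone (0.0186), in a range of 0.0159 to 0.185. SLC9A3 at 0.626, 1.08 and 1.54 CPM was not distinguishable from the control group at this depth (95% interval of the log2 fold change -0.81 to 0.90, adjusted p = 0.938).

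The 3 comparisons above share the same 3 control samples, so the drugs were also compared directly in a fit of all 12 samples, where 17073 genes were tested. Of 24 differences between drugs, 3 for each gene, 21 passed the adjusted p. Between iohexol and cisplatin all 8 genes differed (54.0% of all genes tested), between iohexol and vancomycin 6 (56.6%) and between cisplatin and vancomycin 7 (64.7%). The differences that did not pass were those of ATP1B3 between vancomycin and iohexol (iohexol against vancomycin 0.17 on the log2 scale, 95% interval 0.01 to 0.33, adjusted p = 0.0727) or cisplatin (cisplatin against vancomycin -0.11, -0.27 to 0.06, 0.239), and that of SLC4A7 between iohexol and vancomycin, with 45.5 and 45.4 CPM (log2 interval -0.23 to 0.24, adjusted p = 0.993). SLC9A3 was higher with cisplatin than with iohexol and higher with iohexol than with vancomycin, but both calls rested on single samples. The former was lost without iohexol replicate 1 (adjusted p = 0.0672), iohexol replicate 3 (0.0796) or cisplatin replicate 3 (0.0898), in a range of 0.00865 to 0.0898. The latter was lost without iohexol replicate 2 (0.156), vancomycin replicate 1 (0.146) or vancomycin replicate 2 (0.065), in a range of 0.00862 to 0.156. The difference of SLC12A2 between iohexol and vancomycin was lost without vancomycin replicate 2 (adjusted p = 0.0538, range 0.000338 to 0.0538). That of ATP1B3 between iohexol and vancomycin passed without iohexol replicate 2 (0.0218) or vancomycin replicate 2 (0.0334), with DESeq2 (0.0412), with RLE factors (0.0484), with at least 10 counts in every sample (0.0356) and with library size alone (0.000278), in a range of 0.000278 to 0.282, while ATP1B3 between iohexol and cisplatin and FXYD5 between cisplatin and vancomycin did not pass with library size alone (adjusted p = 0.1 and 0.226, ranges 0.00172 to 0.1 and 4.52e-06 to 0.226). The sign for ATP1B3 between cisplatin and vancomycin turned with library size only, to 0.23 (adjusted p = 0.0123, range 0.0123 to 0.553).

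In direct comparison, ATP1B1 was higher with iohexol than with cisplatin by 1.72 (SE 0.08, adjusted p = 9.05e-13) and than with vancomycin by 1.10 (SE 0.08, adjusted p = 3.94e-10) on the log2 scale. FXYD5 was lower with iohexol than with vancomycin, with a log2 difference of -1.39 (SE 0.08, adjusted p = 2.85e-11), the reverse of FXYD2 at 1.27 (SE 0.26, adjusted p = 0.000373). SLC4A4 was lower with cisplatin than with vancomycin, with a log2 difference of -1.75 (SE 0.11, adjusted p = 4.69e-11). SLC12A2 was higher with cisplatin than with iohexol or vancomycin, 1.6-fold and 2.12-fold (adjusted p = 8.34e-05 and 1.93e-07, edgeR).

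Ordered by level, ATP1B1 ran from cisplatin through control and vancomycin to iohexol, FXYD5 from iohexol through control and cisplatin to vancomycin, and SLC4A4 from cisplatin through vancomycin and iohexol to control. No neighboring groups overlapped in these orders. For ATP1B3 the control group was lowest and apart, while cisplatin, vancomycin and iohexol each overlapped the next. For SLC12A2 only cisplatin stood apart, at the top, and for FXYD2 only iohexol. For SLC9A3 the control and vancomycin groups overlapped, with iohexol and cisplatin above them, and SLC4A7 formed pairs, vancomycin with iohexol and control with cisplatin. With library size alone the order changed for ATP1B1, ATP1B3 and SLC9A3.

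For the 4 genes that were DEGs with a drug, the genes with the most similar profile over the 12 samples were found among 15255 named genes, by the root mean square distance of log2 CPM centred per gene. For ATP1B1 these were ASPHD2 (distance 0.163) and ACSL1, an acyl-CoA synthetase (0.168), beside a spread of 0.666 of ATP1B1 itself. ACSL1 was at 57.5 CPM in the control group, 132.9 with iohexol, 51.8 with cisplatin and 81.9 with vancomycin. For FXYD2 they were GDA, guanine deaminase (0.386), and CDH16, the kidney cadherin (0.409), the latter at 11.4 CPM in the control group and 57.7 CPM with iohexol. For SLC4A4 they were PRKCA, a protein kinase C (0.140), and PARD3, a cell polarity gene (0.175), which span 508 and 706 kb. PRKCA was at 89.3 CPM in the control group and 13.7 CPM with cisplatin. For SLC9A3 they were the noncoding RNAs LINC01089 (0.274) and ZNF426-DT (0.285).

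The 63 other genes of the same pathways, in 8 lists, moved in both directions. With iohexol, 10 of the 42 tested were higher and 6 lower, with cisplatin 13 and 13 of 42, and with vancomycin 14 and 15 of 43. Thus 38.1%, 61.9% and 67.4% of them passed the test, beside 21.0%, 59.8% and 57.9% of all genes. Their median log2 fold changes were 0.121, 0.0253 and -0.176. These lists were also chosen with earlier results of these data known, so the shares do not test them as sets. The split depended on scaling: with library size alone, 14 were higher and 5 lower with iohexol, 19 and 10 with cisplatin, and 13 and 17 with vancomycin. With iohexol, 3 were lower in place of 6 without control replicate 3.

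Of 11 other pump subunits only 3 had enough counts to be tested against the control group. FXYD6, a relative of FXYD2, rose with iohexol (log2 fold change 1.38, adjusted p = 0.00666) and vancomycin (1.52, adjusted p = 0.000496) and fell with cisplatin (-1.29, adjusted p = 0.0439), at a level of at most 2.84 CPM in any sample.

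Of the 10 other sodium/proton exchangers, 1 of 7 tested rose and 2 fell with iohexol, 2 of 6 rose and 3 fell with cisplatin, and 1 of 7 rose and 3 fell with vancomycin. SLC9A7, an exchanger of the trans-Golgi network, fell with all 3 drugs, with log2 fold changes of -0.53, -0.73 and -0.39 for iohexol, cisplatin and vancomycin (adjusted p = 0.00323, 8.56e-07 and 0.0027, edgeR). Among the 6 partners of SLC9A3, ezrin (EZR), which links it to actin, fell with vancomycin from 735 ± 31.5 to 370 ± 19.2 CPM (-1.03, adjusted p = 2.2e-10). The scaffold PDZK1 rose with cisplatin (0.43) and fell with vancomycin (-0.58, adjusted p = 2.75e-05 and 1.7e-05, edgeR), and the cofactor CHP1 rose with vancomycin by 0.24 (adjusted p = 0.0324). The counts for these partners were 1 higher and 0 lower of 5 tested with iohexol, 3 and 0 with cisplatin, and 2 and 3 with vancomycin.

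Of the other cation-chloride cotransporters, 7 of 8 were tested. With iohexol 1 rose and 1 fell, with cisplatin 2 rose and 3 fell, and with vancomycin 4 rose and 0 fell. SLC12A4 and SLC12A7 carry potassium and chloride out of cells, against the direction of SLC12A2, and they moved differently. SLC12A4 rose with cisplatin (log2 fold change 1.10, adjusted p = 4.61e-09) and fell with iohexol (-0.40, adjusted p = 0.0413). SLC12A7 fell with cisplatin (-0.50, adjusted p = 4.58e-05) and rose with vancomycin from 89.4 ± 11.1 to 195 ± 15.9 CPM (1.09, adjusted p = 1.75e-09). SLC12A8 also fell with cisplatin (-0.67) and rose with vancomycin (0.97). Of the 6 kinases that act on SLC12A2, 1 rose and 0 fell with iohexol, 1 rose and 3 fell with cisplatin, and 0 rose and 4 fell with vancomycin. STK39, the kinase SPAK that phosphorylates SLC12A2, rose with iohexol from 41.1 ± 4.35 to 100.4 ± 12.2 CPM (1.31, adjusted p = 1.26e-05) and fell with cisplatin to 13.8 ± 0.909 CPM (-1.58, adjusted p = 8.38e-10) and with vancomycin to 28.98 ± 2.12 CPM (-0.55, adjusted p = 0.000248). WNK1 and WNK3, which act upstream of SPAK, fell with vancomycin by 0.77 and 0.65 and with cisplatin by 0.35 and 0.59.

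**Figure D5:**
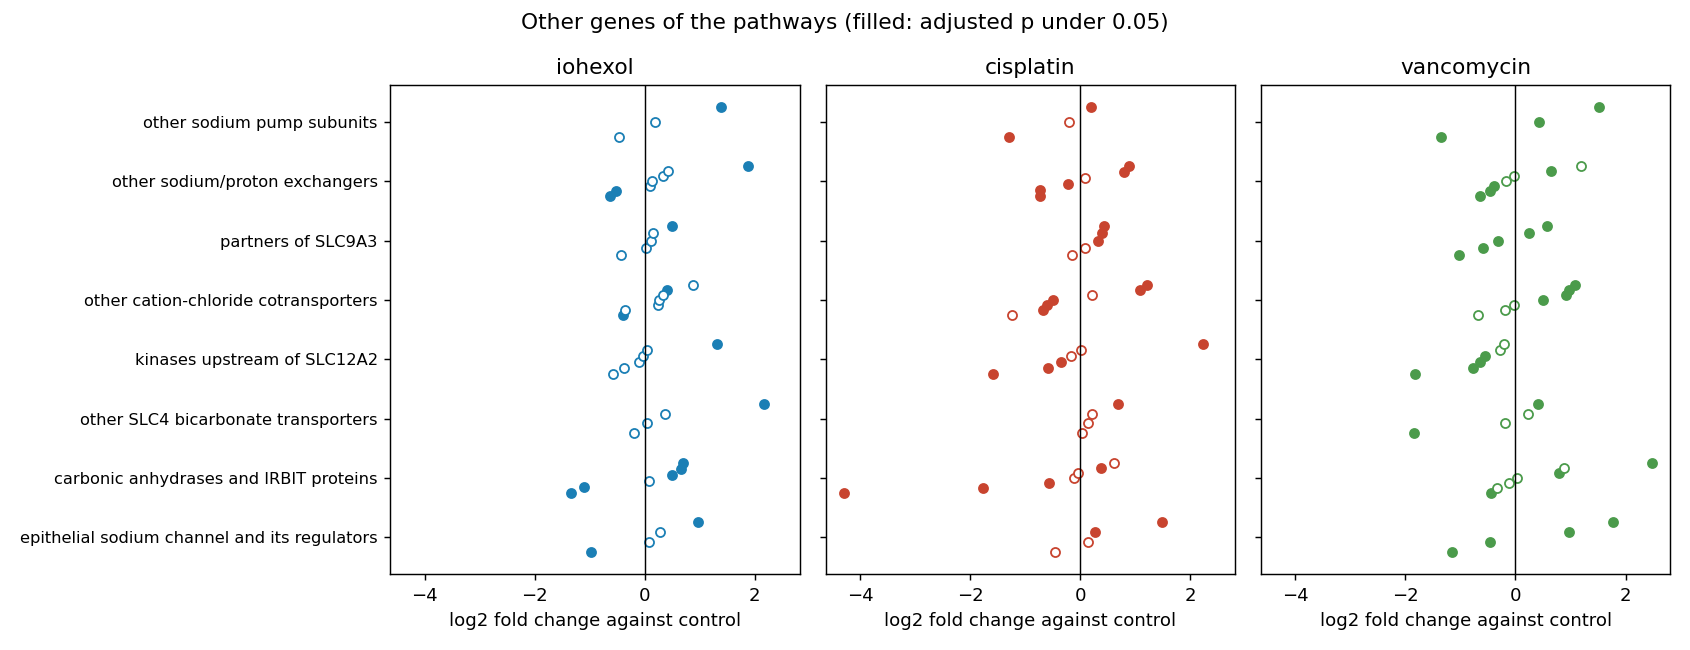
Log2 fold change against control of the tested genes of the 8 lists of other pathway genes, 1 panel for each drug and 1 row for each list, with filled points at an adjusted p under 0.05 (edgeR). Filled points lie on both sides of 0 in each panel, with 10 higher and 6 lower for iohexol, 13 and 13 for cisplatin, and 14 and 15 for vancomycin.

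Of the other genes of the SLC4 family, 4 of 8 were tested. SLC4A11 rose with iohexol from 9.03 ± 1.55 to 40.4 ± 2.78 CPM (log2 fold change 2.18, adjusted p = 9.56e-07) and with cisplatin to 14.6 ± 0.291 CPM (0.69, adjusted p = 0.000243). SLC4A8, a sodium-driven chloride/bicarbonate exchanger, fell with vancomycin from 7.80 ± 0.812 to 2.23 ± 0.778 CPM (-1.84, adjusted p = 5.25e-07), and the anion exchanger SLC4A2 rose with it by 0.41 on the log2 scale (adjusted p = 0.00086). No other gene of this list was called with any drug. Among the carbonic anhydrases and IRBIT proteins, which supply or regulate bicarbonate transport, 3 of 6 tested rose and 2 fell with iohexol, 1 of 7 rose and 3 fell with cisplatin, and 2 of 7 rose and 1 fell with vancomycin. The cytosolic CA2 rose with iohexol (0.66, adjusted p = 0.000858) and fell with vancomycin (-0.45, adjusted p = 0.000417). The membrane-bound CA12 fell with cisplatin from 66.4 ± 4.66 to 19.5 ± 1.75 CPM (-1.77, adjusted p = 2.32e-11) and with iohexol (-1.10, adjusted p = 1.52e-05), and rose with vancomycin to 118 ± 1.54 CPM (0.79, adjusted p = 6.89e-08). AHCYL2, an IRBIT protein, rose with iohexol by 0.50 and fell with cisplatin by 0.56.

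The last list holds the epithelial sodium channel and its regulators, of which 4 of 6 were tested. With iohexol 1 rose and 1 fell, with cisplatin 2 rose and 0 fell, and with vancomycin 2 rose and 2 fell. SCNN1A, the alpha subunit of the channel, rose with iohexol from 3.13 ± 0.934 to 6.08 ± 0.577 CPM (log2 fold change 0.97, adjusted p = 0.0106) and with vancomycin to 11.0 ± 0.813 CPM (1.77, adjusted p = 6.25e-08). SGK1, the kinase that stimulates sodium transport, fell with iohexol (-0.98, adjusted p = 4.5e-05) and vancomycin (-1.14, adjusted p = 1.09e-10), from 162 ± 6.40 to 81.1 ± 10.7 and 75.4 ± 4.63 CPM. NEDD4L, the ubiquitin ligase that removes the channel from the membrane, rose with cisplatin by 0.28 and fell with vancomycin by 0.46.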

How the data were processed

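RNA of HK-2 cells was measured in 12 samples, grouped by their titles, which give the drug and a replicate number. The authors deposited raw, unnormalized read counts for every gene, in whole numbers. Per the submitters' processing notes, the tools named are CASAVA 1.8, fastp, HISAT2 2.0.5, featureCounts 1.5.0-p3 and DESeq2 1.20.0, and the labels describe poly(A)-selected RNA and an NEBNext Ultra kit. How strand was treated in counting and which annotation release was used are not given in the sources used here, but all positions matched GENCODE release 29 on GRCh38, which was used for overlaps and spans. Replicates of a group differed beyond sampling noise (chi-square per degree of freedom 2.28 to 15.5 over 12 pairs).

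From these counts, each drug group was tested against the control group over the whole table with edgeR 4.0.16 in R 4.3.3 (TMM, filterByExpr at 10 counts and 15 in total, estimateDisp, glmQLFit, glmQLFTest). P-values were adjusted by Benjamini-Hochberg over all genes tested, and the standard error was the log2 fold change divided by the square root of F. Contrasts between drugs came from 1 fit over the 12 samples. Log2 CPM used a prior count of 2. Total counts of 14057282 to 18177109 set the precision, and floors cover counting error only. Only the edgeR fit of iohexol against control was also run on simulated counts.

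The 8 genes and all lists were chosen with earlier results of these data known. All 8 are named. Of each pathway list, up to 3 genes were named, those with the highest mean level among genes called with at least 1 drug. Results for a few genes under this rule are not reported here. For DEGs, the 2 nearest profiles were named. Genes that share exons with a named gene were added.

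Alternatives were DESeq2 1.42.0, limma-voom (limma 3.58.1), RLE factors, library size only, other filters, 1 fit of all samples, a replicate block and leaving out each sample. Promoter windows are from RefSeq (GRCh38.p14). Python 3.11.15 and matplotlib 3.10.9 were used for sequences and figures.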

Additional observations from a re-analysis of the deposited data

How the results depend on the processing

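There were 336 values of the 8 genes against the control group under alternatives. Of these, 313 kept their side of the threshold, 16 newly passed it, 6 no longer did and 1 reversed. Between drugs the numbers were 440, 6, 9 and 1 of 456. A reversed value changed sign and passed in the main or the alternative setting. Where neither passed, signs could also turn. Examples are SLC9A3 with vancomycin (-0.30 to 0.32) and SLC4A7 between iohexol and vancomycin (-0.12 to 0.21). The reversed ones were both with library size only: ATP1B1 with cisplatin at 0.011 in place of -0.21, and ATP1B3 between cisplatin and vancomycin at 0.23 in place of -0.11. With that scaling, the order of the 4 group means was kept for 5 of the 8 genes (not for ATP1B1, ATP1B3 and SLC9A3) and 1 of the 8 genes was a DEG with vancomycin in place of 0 (SLC4A4). By leaving out 1 sample that number ranged from 0 to 1 (SLC4A4 or FXYD2). The share of higher genes among all calls moved with library size only from 53.4% to 67.3% with iohexol and from 48.9% to 68.0% with cisplatin. The other pathway genes lower with iohexol ranged from 3 to 6 when 1 sample was left out. Same-numbered samples did not deviate together (correlations -0.184 to 0.103, 1 of 18 over 0.1, and 2 of 12 samples correlated best with their own number), so the numbers do not pair the samples. With the replicate block, SLC4A4 with iohexol had -0.40 (adjusted p = 0.061) and SLC12A2 with vancomycin -0.32 (adjusted p = 0.0244), no other call of the 8 genes against the control group changed side, and 2096 in place of 3284 genes were called with iohexol. The cause of each change was not tested. SLC9A3 and FXYD2 had the lowest counts, 10 to 69 and 18 to 207 per sample. The parts of depth and of spread between replicates in their errors were not tested.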
